A study of Rattus norvegicus with 6 samples.

Results

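Rat vestibular sensory epithelium was examined for 10 genes of innate immunity, 6 that sense nucleic acids or relay their detection (Ddx58, Ifih1, Dhx58, Zbp1, Tlr3 and Mavs) and 4 that encode interferon-inducible GTPases (Gbp2, Gbp4, Gbp5 and Igtp). They were picked by symbol from the 32883 genes of the count table, and all 10 have a row. The samples were 6 libraries from adult male Long-Evans rats. In the IDPN-4wk group, 3 rats received 3,3'-iminodipropionitrile (IDPN), an ototoxic nitrile that damages vestibular hair cells (HCs), at 20 mM in the drinking water over 4 weeks, and the 3 Control rats received water without it. Each library is 1 rat, with the utricles and cristae of that animal pooled, so the RNA is that of a whole tissue, in which fewer cells of a type and less RNA per cell cannot be told apart. Animal codes in the titles begin alike in the IDPN-4wk rats and otherwise in the controls, and what the codes mark cannot be told apart from the treatment.

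Foreign or misplaced nucleic acid is detected inside cells by a small set of proteins. RIG-I (encoded by Ddx58) and MDA5 (Ifih1) are helicases that bind viral or otherwise unusual RNA in the cytosol and signal through Mavs, an adaptor on the mitochondrial membrane. LGP2 (Dhx58) is a related helicase without the signalling domain that tunes them, Tlr3 detects double-stranded RNA in endosomes, and Zbp1 recognises nucleic acid in the left-handed Z form and can start necroptosis. Detection ends in the production of interferons, which bind receptors on the same and nearby cells and switch on a large set of genes through the STAT and IRF factors, the sensors themselves among them. The guanylate-binding proteins (Gbp genes) and the immunity-related GTPase Igtp are products of that programme that assemble on the membranes of intracellular microbes.

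The 10 genes were read against the sequence just upstream of their starts, since the factors of the interferon response bind short DNA elements there. The windows are the 250 bases before each RefSeq gene start in the build GRCr8, and 7 of the 10 genes had a window. Ddx58, Dhx58 and Zbp1 had none. The cores searched were GAAANNGAAA, the core of the interferon-stimulated response element (ISRE), and TTCNNNGAA, the core of the gamma-activated site (GAS), each on both strands. The ISRE core was found in 5 of the 7 windows, those of Ifih1, Gbp2, Gbp4, Gbp5 and Igtp, and not in those of Tlr3 and Mavs. Of all 27457 windows, 3.29% hold it. The GAS core was found in 1 of the 7, that of Igtp, and in 7.52% of all windows. The windows of a helicase gene, 2 GTPase genes of one cluster, of which 1 was called higher and 1 was not, and Igtp are printed 5′ to 3′ along the gene, with the cores in capitals.
Ifih1, chr3:67683969-67684218, minus strand: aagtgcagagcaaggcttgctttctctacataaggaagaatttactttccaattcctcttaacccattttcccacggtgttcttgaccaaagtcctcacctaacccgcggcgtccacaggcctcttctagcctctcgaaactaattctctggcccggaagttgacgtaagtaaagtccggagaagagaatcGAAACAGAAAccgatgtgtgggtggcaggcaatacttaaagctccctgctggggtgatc
Gbp2, chr2:234005477-234005726, plus strand: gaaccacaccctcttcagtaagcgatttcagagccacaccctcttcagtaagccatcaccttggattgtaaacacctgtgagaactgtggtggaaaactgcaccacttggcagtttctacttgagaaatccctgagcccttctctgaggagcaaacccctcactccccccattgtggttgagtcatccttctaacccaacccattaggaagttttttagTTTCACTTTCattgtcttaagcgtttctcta
Gbp5, chr2:233910749-233910998, plus strand: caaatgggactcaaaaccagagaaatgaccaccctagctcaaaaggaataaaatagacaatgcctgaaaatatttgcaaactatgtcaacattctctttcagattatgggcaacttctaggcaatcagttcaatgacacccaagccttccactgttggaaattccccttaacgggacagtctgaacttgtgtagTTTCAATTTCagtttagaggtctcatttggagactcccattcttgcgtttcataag
Igtp, chr10:42874797-42875046, plus strand: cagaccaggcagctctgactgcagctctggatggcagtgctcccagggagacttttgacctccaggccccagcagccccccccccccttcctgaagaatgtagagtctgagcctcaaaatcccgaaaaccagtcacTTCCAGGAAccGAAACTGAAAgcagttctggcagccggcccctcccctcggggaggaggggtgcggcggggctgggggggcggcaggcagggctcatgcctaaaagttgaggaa
A match of letters is a description of the sequence and does not show that a factor binds there.

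The cores lay close to the gene starts. In Ifih1 the ISRE core spans bases -59 to -50 from the start and reads along the gene strand. In the Gbp genes it reads on the opposite strand, at -31 to -22 in Gbp2, at -10 to -1 in Gbp4 and at -56 to -47 in Gbp5. Gbp7, a guanylate-binding protein of the same cluster that is not among the 10, holds it at -41 to -32. In Igtp, and in Irgm, a related GTPase gene on the same chromosome, the GAS and ISRE cores stand side by side in the same order, from -114 to -94 and from -45 to -25. Irgm2, next to Igtp in the annotation, holds the same pair from -113 to -93. Stretches of 30 bases around the cores are shown to compare the relatives, again with the cores in capitals.
Gbp2, chr2:234005686-234005715, plus strand: agttttttagTTTCACTTTCattgtcttaa
Gbp4, chr2:233978456-233978485, plus strand: tcatctggcaagaagcagggTTTCGATTTC
Gbp5, chr2:233910933-233910962, plus strand: acttgtgtagTTTCAATTTCagtttagagg
Gbp7, chr2:233948838-233948867, plus strand: gcctttgtagTTTCAATTTCagttctctgt
Igtp, chr10:42874929-42874958, plus strand: tcacTTCCAGGAAccGAAACTGAAAgcagt
Irgm, chr10:33742598-33742627, minus strand: tcgtTTCAAGGAAtaGAAACTGAAAccgac
Gbp5 and Gbp7 share an unbroken run of 19 bases that holds the core, whereas the longest runs shared by the other pairs of these 4 Gbp windows were 8 to 11 bases and did not hold it. The longest run shared by Igtp and Irgm was 12 bases.

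**Figure D1:**
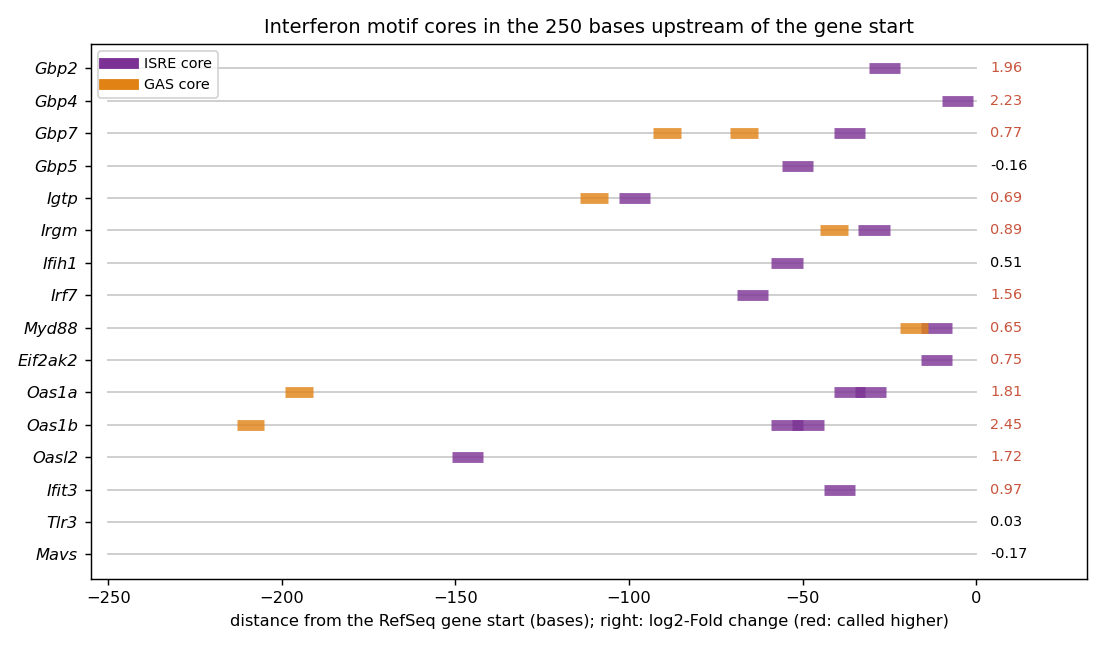
Position of the ISRE and GAS cores in the 250 bases upstream of the gene start, in bases from the start. Drawn are the genes of the group with a window and the pathway genes called higher that hold an ISRE core. Other pathway genes that hold a core, called or not, are not drawn. The log2-Fold change in IDPN-4wk is at the right (red where called higher). Gbp2 (1.96) and Gbp5 (-0.16) both hold an ISRE core within 60 bases of the start.

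RNA levels are given as CPM (counts scaled to a library of fixed size) after scaling of the libraries, and the log2-Fold change is that of IDPN-4wk against Control. The total counts per library were 13358678 to 18561991, at which a count of 3, taken as the limit of detection, equals 0.155 to 0.216 CPM. A gene was called changed at an adjusted p (Padj, edgeR quasi-likelihood test, Benjamini-Hochberg over the 14352 genes tested) under 0.05 and a change over 1.5-fold. CPM is not corrected for transcript length, so levels were compared between groups and not between genes. Of the 10 genes, 9 passed the filter on low counts and 5 were called higher (Ddx58, Dhx58, Gbp2, Gbp4 and Igtp), where 3.09% of all genes tested were called higher. None of the 9 was called lower, where 6.62% of all genes were, and 9.71% were called in either direction. In 6 of them, the same 5 and Ifih1, every IDPN-4wk library lay above every control library, as in 18.5% of all genes, and in 1, Mavs, below, as in 19.3%. The same 6 passed the adjusted p alone in the higher direction, as did 7.89% of all genes. The median log2-Fold change of the 9 genes was 0.69, beside 0.02 over all genes tested.

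**Figure D2:**
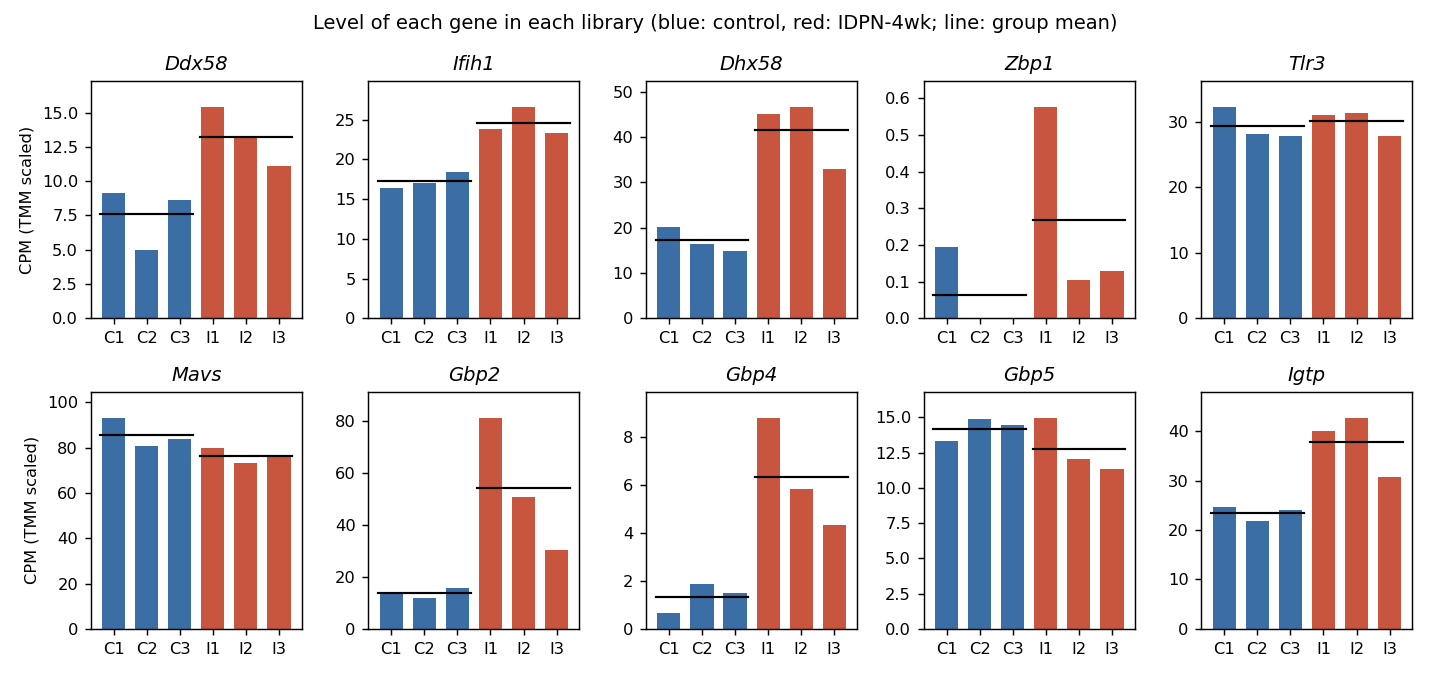
Level of each of the 10 genes in each library, in CPM (blue: Control, red: IDPN-4wk, line: group mean), each panel on its own axis from 0. Gbp2, Gbp4, Dhx58, Igtp, Ddx58 and Ifih1 show every red bar higher than every blue bar, whereas the groups overlap in Tlr3, Gbp5 and Zbp1.

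Among the RIG-I-like receptors, Dhx58 (LGP2, ENSRNOG00000018247) changed the most. It read 20.2, 16.4 and 14.9 CPM in the controls and 45.1, 46.5 and 32.8 CPM in the IDPN-4wk libraries. The highest control stood well below the lowest treated library. The mean went from 17.2 ± 2.73 to 41.5 ± 7.54 CPM (SD, n = 3 each), a log2-Fold change of 1.27 (standard error 0.16, edgeR Padj = 3.66e-04) or 2.42-fold.

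Ddx58 (RIG-I, ENSRNOG00000006384), the helicase that recognises RNA with a 5′ triphosphate end, read 9.17, 4.96 and 8.63 CPM in the controls and 15.4, 13.3 and 11.1 CPM after IDPN. The groups did not overlap, but control replicate 2 was low and the gap between the nearest libraries was small. The mean rose from 7.59 ± 2.29 to 13.3 ± 2.16 CPM (log2-Fold change 0.80, standard error 0.23, edgeR Padj = 0.0336). This call was the least stable of the 5, since Padj was 0.0802 without control replicate 2, 0.0587 without control replicate 3, 0.126 without IDPN-4wk replicate 1 and 0.0835 when the treated replicate 2 was left out.

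Ifih1 (MDA5, ENSRNOG00000006227), the sensor of long double-stranded RNA, read 16.5, 17.1 and 18.4 CPM in the controls and 23.8, 26.6 and 23.4 CPM in the treated rats. Both groups were tight and did not overlap. The difference was beyond the spread between libraries (edgeR Padj = 0.0117), but its log2-Fold change of 0.51 (standard error 0.12, 95% interval 0.25 to 0.76), or 1.42-fold, was under the fold threshold, so the gene was not called. The interval of the change includes values on both sides of that threshold.

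Mavs (ENSRNOG00000025295), the adaptor below the helicases, read 93.0, 80.5 and 83.7 CPM in the controls and 79.7, 73.0 and 76.0 CPM after IDPN. Every treated library lay just below the lowest control. The log2-Fold change was -0.17 (standard error 0.08, 95% interval -0.35 to 0.01, edgeR Padj = 0.168), which did not pass the test. The ratio of Dhx58 to Mavs counts within a library was 0.217, 0.203 and 0.179 in the controls and 0.566, 0.637 and 0.432 in the treated rats. The groups did not overlap in this ratio (exact permutation test, two-sided p = 0.10, the smallest that 3 against 3 libraries can give, and 0.16 adjusted over the 8 ratios computed). The ratio of Dhx58 to Ifih1 was also apart between the groups, at 1.23, 0.959 and 0.812 against 1.90, 1.75 and 1.40, with the same exact permutation p values. The ratios of Dhx58 to Ddx58 and of Ddx58 to Ifih1 overlapped between the groups (exact permutation p = 0.30 and 0.40).

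Tlr3 (ENSRNOG00000021726), the endosomal receptor for double-stranded RNA, read 32.2, 28.1 and 27.8 CPM in the controls and 31.1, 31.4 and 27.8 CPM after IDPN. The groups overlapped fully. The log2-Fold change was 0.03 (standard error 0.11, edgeR Padj = 0.855), with a 95% interval of -0.20 to 0.27 that leaves out a change of 1.5-fold in either direction.

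Zbp1 (ENSRNOG00000006314), the sensor of Z-form nucleic acid, was close to the limit of detection. Its counts were 3, 0 and 0 in the controls and 8, 2 and 2 after IDPN, too few for the filter. Summed over the groups and divided by depth, the ratio of the rates was 3.60 with a 95% counting interval of 0.971 to 19.9, which covers counting error only, so a difference was not detectable at this depth.

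The GTPases held the largest changes of the 10 genes, and 3 of the 4 were called higher. Gbp2 (ENSRNOG00000031743), a guanylate-binding protein of the interferon response, read 13.8, 11.9 and 15.9 CPM in the controls and 81.0, 50.7 and 30.2 CPM after IDPN. All treated libraries were above the controls, but they spread widely among themselves. The mean rose from 13.9 ± 1.99 to 53.9 ± 25.5 CPM (SD, n = 3 each), a log2-Fold change of 1.96 (standard error 0.29, edgeR Padj = 0.00105) or 3.88-fold.

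Gbp4 (ENSRNOG00000028768), a further guanylate-binding protein, was a low gene with 10, 27 and 21 counts in the controls and 122, 113 and 67 counts in the treated libraries. These equal 0.646, 1.89 and 1.49 CPM against 8.77, 5.83 and 4.31 CPM. The groups were well apart. The log2-Fold change of 2.23 (standard error 0.40, 95% interval 1.35 to 3.11, edgeR Padj = 0.00315) was the largest of the 9 genes and stood at percentile 99.7 of all genes tested, and that of Gbp2 at percentile 99.6.

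Gbp5 (ENSRNOG00000032240), known as a promoter of inflammasome assembly, read 13.3, 14.9 and 14.4 CPM in the controls and 14.95, 12.0 and 11.3 CPM in the treated rats. The groups overlapped, with IDPN-4wk replicate 1 above every control and the other treated libraries below them. The log2-Fold change was -0.16 (standard error 0.15, 95% interval -0.49 to 0.17, edgeR Padj = 0.506), and the interval leaves out a change of 1.5-fold in either direction. Gbp2 and Gbp5 were set against each other within each library. The ratio of their counts was 1.04, 0.798 and 1.10 in the controls and 5.41, 4.21 and 2.66 after IDPN, without overlap (exact permutation p = 0.10, adjusted 0.16). Gbp7 relative to Gbp5 was also apart, at 0.316, 0.404 and 0.431 against 0.683, 0.717 and 0.807 (exact permutation p = 0.10, adjusted 0.16). Whether the 19-base run shared by Gbp5 and Gbp7 has a part in their levels was not tested. The ratio of Gbp4 to Gbp2 overlapped between the groups (exact permutation p = 0.50). Gbp genes resemble each other in sequence and reads that match several of them were divided by estimation, so their separate levels are less certain than those of single-copy genes.

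The Gbp genes lie side by side, in the order Gbp5, Gbp7, Gbp4 and Gbp2 in the GRCr8 annotation. The genes next to the cluster that passed the filter were not called, with log2-Fold changes of -0.20 for Pdlim5 before Gbp5, and -0.31 for Kyat3 and 0.16 for Gtf2b beyond Gbp3. Gbp3, a member of the same cluster, had 0 counts in all 6 libraries.

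Igtp (ENSRNOG00000027008), an immunity-related GTPase that acts at the vacuoles of parasites, read 24.6, 21.8 and 24.1 CPM in the controls and 40.1, 42.7 and 30.6 CPM after IDPN. The controls were tight and every treated library was above them. The mean rose from 23.5 ± 1.498 to 37.8 ± 6.33 CPM (log2-Fold change 0.69, standard error 0.13, edgeR Padj = 0.00503) or 1.61-fold. Without IDPN-4wk replicate 2 the change was 0.58 with Padj 0.0215 (edgeR), just under the fold threshold. Igtp was singled out by the study from these libraries, so its direction is not independent evidence. Irgm, a relative with the same pair of motif cores, rose from 19.9 ± 2.40 to 36.9 ± 7.10 CPM (SD over 3 libraries, log2-Fold change 0.89, standard error 0.15, edgeR Padj = 0.00247). The ratio of Igtp to Irgm was lower in every treated library, at 1.11, 1.26 and 1.19 in the controls against 1.09, 0.970 and 1.03 (exact permutation p = 0.10, adjusted 0.16).

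**Figure D3:**
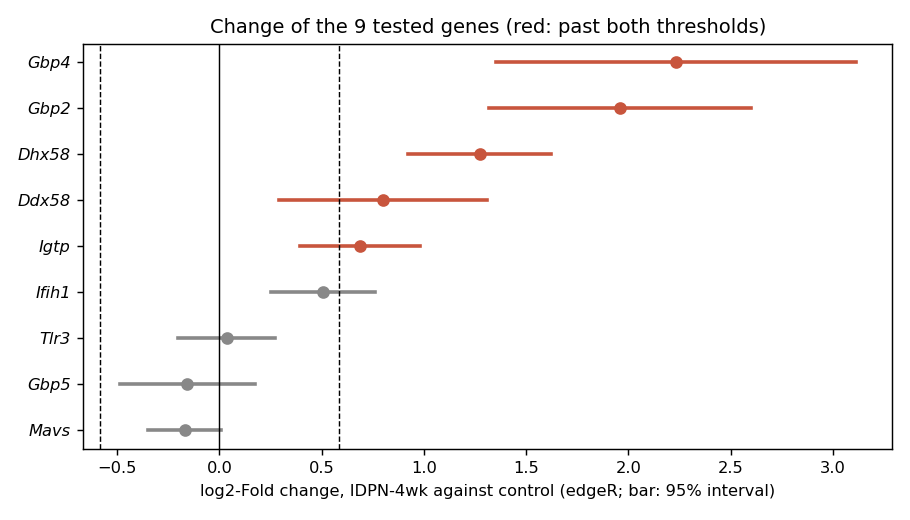
The log2-Fold change of IDPN-4wk against Control for the 9 genes tested, with 95% intervals from edgeR (red: past both thresholds). Gbp4 (2.23), Gbp2 (1.96) and Dhx58 (1.27) lie farthest to the right, and the intervals of Tlr3, Gbp5 and Mavs include 0.

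The size of the rise was not even over the treated rats. IDPN-4wk replicate 3 was the lowest of the treated libraries in 8 of the 9 genes tested and in all 5 called higher. Over all genes called higher it was the lowest in 52.5%, and over all genes tested in 35.1%. Relative to the control mean, its log2 level was 1.12 for Gbp2, where the other treated rats stood at 2.55 and 1.87, and 0.94 for Dhx58, where they stood at 1.40 and 1.44. Tlr3 and Gbp5 were also lowest in this library, and Mavs was the exception. Over all genes called lower, the same library was the highest treated library in 63.5%, so it lay nearer to the controls in both directions. The summed CPM of 8 HC marker genes was 2829, 2889 and 2825 in the controls and 1837, 1883 and 2185 in IDPN-4wk replicates 1, 2 and 3. The summed CPM of 8 supporting cell markers was 8092, 8881 and 8136 in the controls and 4678, 4385 and 5568 in the treated rats, so replicate 3 was again nearest to the controls. Otog, a protein of the membranes over the HCs, made up most of that sum, with a mean of 6262 CPM in the controls and 3199 CPM after IDPN, and the median log2-Fold change of the 8 genes was -0.30, with Sox9 and Hes1 at 0.24 and 0.36. The part that RNA of either cell type has in the order of the sensors and GTPases was not tested.

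**Figure D4:**
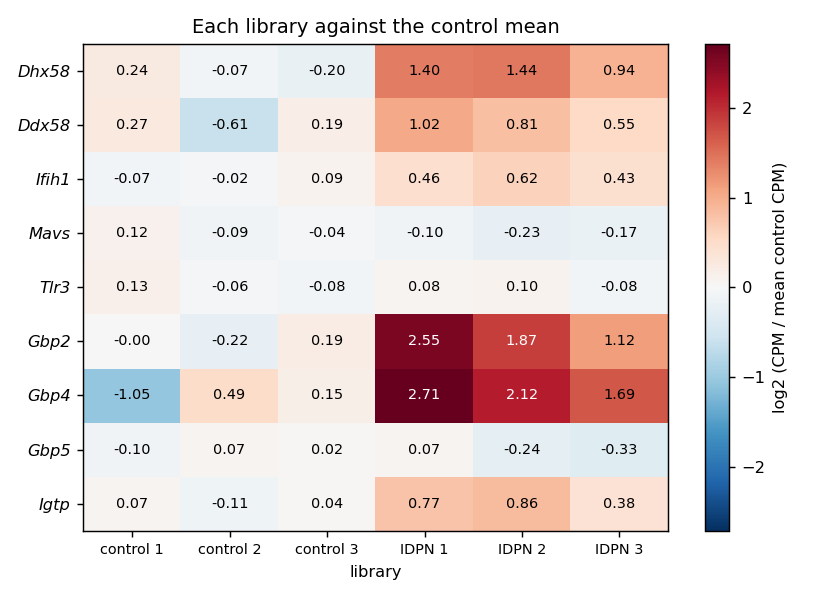
Level of the 9 genes tested in each library as log2 of its CPM over the mean control CPM (colour and number in each cell). The column of IDPN-4wk replicate 3 is paler than those of the other treated rats for Gbp2 (1.12), Gbp4 (1.69) and Dhx58 (0.94).

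The pathways around the 10 genes were read from lists of 110 genes in the table, of which 89 passed the filter. Of these, 20 (22.5%) were called higher and 3 (3.37%) lower, and the median of their log2-Fold changes was 0.17, beside 3.09%, 6.62% and 0.02 for all genes. How the lists differed from each other was not tested.

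Between the helicases and the interferon genes, 22 genes of the RIG-I-like receptor pathway were tested, and 2 were called higher and none lower (median 0.11). Irf7, the factor that drives transcription of interferon genes, rose from 17.1 ± 2.86 to 50.5 ± 5.87 CPM (SD over 3 libraries, log2-Fold change 1.56, standard error 0.14, edgeR Padj = 4.85e-05). Trim25, a ubiquitin ligase that activates RIG-I, read 31.3, 28.8 and 26.9 CPM in the controls and 48.0, 49.6 and 42.0 CPM after IDPN (log2-Fold change 0.68, standard error 0.10, edgeR Padj = 0.00119). The kinase Tbk1 and the factor Irf3, which act directly below Mavs, had log2-Fold changes of 0.14 and -0.07 that did not pass (edgeR Padj = 0.356 and 0.613).

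Of 10 genes tested around the endosomal Toll-like receptors, 2 were called higher and 2 lower (median 0.08). Myd88, the adaptor of most of these receptors but not of Tlr3, had a log2-Fold change of 0.65 (standard error 0.12, edgeR Padj = 0.00385), and the co-receptor Cd14 of 0.69 (standard error 0.12, edgeR Padj = 0.00261). The chaperone Hsp90b1, which folds these receptors and many other proteins of the endoplasmic reticulum, fell by 0.80 on the log2 scale (edgeR Padj = 0.00216). Tlr8, a receptor for single-stranded RNA, read 1.74, 1.40 and 2.48 CPM in the controls and 0.935, 0.258 and 0.386 CPM after IDPN (log2-Fold change -1.87, standard error 0.51, edgeR Padj = 0.0271). Its Padj was 0.0611, 0.112, 0.100 and 0.0710 without control replicates 1 and 3 and IDPN-4wk replicates 2 and 3, each left out in turn (edgeR). The log2-Fold change of Tlr8 ranged from -2.54 to -1.51 with single libraries left out. Myd88 was under the fold threshold without control replicate 3 or IDPN-4wk replicate 1 (log2-Fold change 0.56 in both).

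On the side of DNA, 1 of 12 genes tested was called higher and none lower (median 0.13). Tmem173, which encodes STING, the adaptor of cytosolic DNA sensing, read 4.13, 3.49 and 3.75 CPM in the controls and 8.27, 6.55 and 6.89 CPM after IDPN (log2-Fold change 0.93, standard error 0.21, edgeR Padj = 0.0117, and 0.0535 without IDPN-4wk replicate 1). Its upstream enzyme Cgas, with 8, 6 and 8 counts against 12, 20 and 7, and the DNA sensor Aim2, with 0, 1 and 0 against 0, 0 and 3, were too low to test. Adar, which edits double-stranded RNA, had a log2-Fold change of 0.55 (standard error 0.11, edgeR Padj = 0.00568), under the fold threshold. It was called without control replicate 1 or IDPN-4wk replicate 3 (0.62 and 0.64) and with scaling by library size alone. Among the 5 partners of Zbp1 in cell death none was called (median 0.20). The kinase Ripk3 had a log2-Fold change of 0.72 with an edgeR Padj of 0.0580, which was 0.0249 without control replicate 2, 0.0470 with upper quartile scaling and 0.0261 with scaling by library size alone, so that it was called under these 3 alternatives.

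Of the 11 tested enzymes and proteins that act on double-stranded or foreign RNA, 8 were called higher and none lower (median 0.98), the highest count and median of these lists. Oas1b, of the family that makes the messenger that activates RNase L, read 7.68, 6.15 and 6.58 CPM in the controls and 43.9, 42.2 and 25.9 CPM after IDPN (log2-Fold change 2.45, standard error 0.20, edgeR Padj = 3.72e-05). Its relatives Oas1a and Oasl2 rose by 1.81 and 1.72 (log2-Fold change, edgeR Padj = 0.00127 and 0.00207). Eif2ak2, the kinase PKR that double-stranded RNA activates, had a log2-Fold change of 0.75 (standard error 0.11, edgeR Padj = 7.69e-04). Ifit1 and Ifit2, which bind foreign RNA ends and translation factors, rose by 0.98 and 0.86 (log2-Fold change, edgeR Padj = 0.00215 and 0.00309). The copies of Oas1 share sequence, and Oas1i was listed at 0, 82 and 0 counts in the controls and 171, 495 and 0 in the treated rats, so the levels of single Oas1 copies are uncertain. Oasl, a related low gene, was called (log2-Fold change 1.07, edgeR Padj = 0.0406), but without single libraries its Padj rose to 0.0640 to 0.169 in 5 of 6 cases, all but that without IDPN-4wk replicate 2. Ifit3 was the last of the 8 (log2-Fold change 0.97, edgeR Padj = 0.00869).

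Among 11 other interferon GTPases and their relatives, 3 were called higher and 1 lower (median 0.31). Mx2, a dynamin-like antiviral GTPase, read 28.2, 20.5 and 21.3 CPM in the controls and 98.6, 106 and 59.9 CPM after IDPN (log2-Fold change 1.92, standard error 0.20, edgeR Padj = 1.31e-04). Its neighbour in function, Mx1, was low and had a log2-Fold change of 0.33 that did not pass (standard error 0.31, edgeR Padj = 0.497). Irgm is given above with Igtp. Gbp7 had a log2-Fold change of 0.77 (standard error 0.21, edgeR Padj = 0.0250, 0.0760 without control replicate 1, 0.0890 if IDPN-4wk replicate 1 was left out). Rabgap1l, a regulator of Rab GTPases, fell by 1.06 on the log2 scale (edgeR Padj = 0.00835).

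None of the interferon genes passed the filter on low counts. Of 11 interferon genes in the table, 9 had 0 counts in all 6 libraries (Ifnb1, Ifna2, Ifna4, Ifna5, Ifna11, Ifna16l1, Ifng, Ifnl1 and Ifnl3), each of which allows up to 0.155 to 0.216 CPM per library. Ifnk had 1 count in each of 2 treated libraries, and Ifne had 6, 0 and 0 counts in the controls and 0, 3 and 3 after IDPN. Of 18 receptors, kinases and factors that carry the interferon signal, 4 were called higher and none lower (median 0.30). Usp18, a brake on the type I receptor, rose from 6.89 ± 2.61 to 39.6 ± 13.8 CPM (SD over 3 libraries, log2-Fold change 2.52, standard error 0.30, edgeR Padj = 3.07e-04). Irf9 and Stat2, subunits of the factor that binds the ISRE, rose by 1.17 and 0.67 (log2-Fold change, edgeR Padj = 1.91e-04 and 0.00203), and Irf1, which binds similar elements, by 0.97 (edgeR Padj = 0.00122). Stat2 was under the fold threshold, at 0.58 and 0.56, without control replicate 3 and IDPN-4wk replicate 2. Igtp, Irf7, Irf9 and Stat2 were picked by the study from these libraries among others. Usp18, Oas1a and Eif2ak2 were named by the study in rats given IDPN for a shorter time. All were chosen here with those results known and are not taken as independent evidence of the direction.

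**Figure D5:**
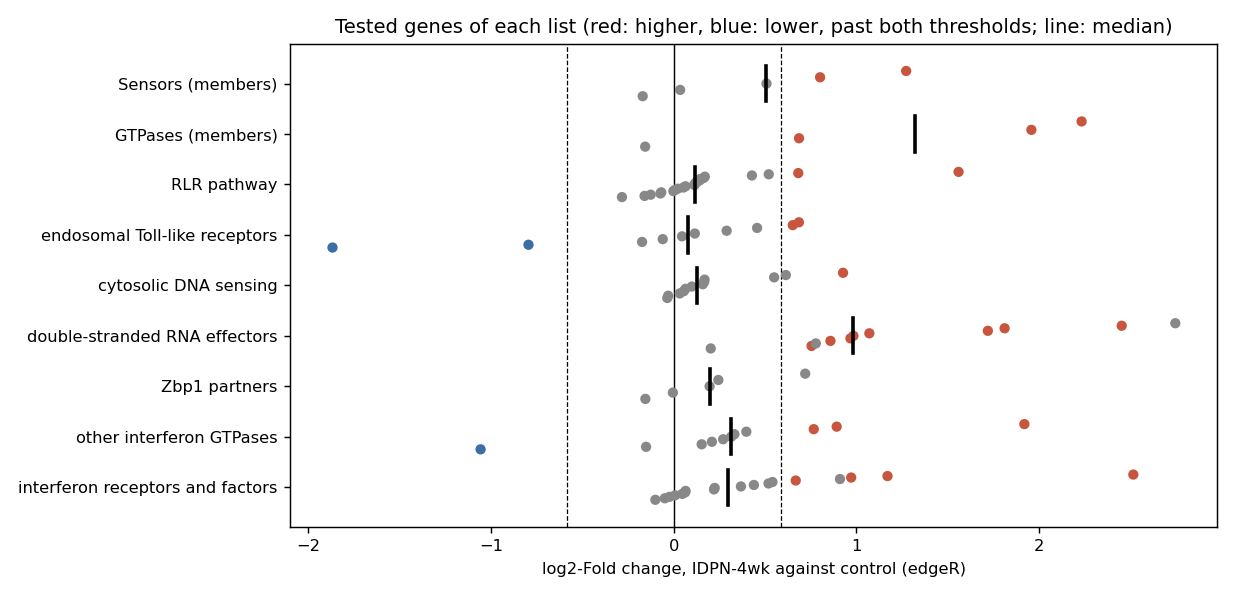
The log2-Fold change of each tested gene by list (red: called higher, blue: called lower, line: median of the list). The list of double-stranded RNA effectors has its median at 0.98 and the RIG-I-like receptor pathway at 0.11.

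The motif cores were counted over the same groups of genes. The ISRE core was in the upstream windows of 6.98% of the 315 genes called higher that had a window, of 2.64% of those called lower and of 2.46% of those tested and not called. Among pathway genes called higher it was in 9 of 16 windows (56.2%). The GAS core was in 7.94%, 7.05% and 5.67% of the windows of genes called higher, called lower and not called, and in 7 of the 16 windows of pathway genes called higher (43.8%). Over all 94 pathway genes with a window, the ISRE core was in 19.1% and the GAS core in 18.1%. Among the 7 genes of the group with a window, the core was present in 3 called higher (Gbp2, Gbp4 and Igtp) and in 2 that were not called, Ifih1 and Gbp5.

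Markers of cells that could bring these RNAs with them were read from lists for macrophages, lymphocytes, dendritic cells with MHC class II, endothelium, neutrophils and Schwann cells. Of 30 such genes tested, 1 was called higher and 6 lower. Of 10 macrophage markers, 1 was called higher, the complement gene C1qb (log2-Fold change 0.71, standard error 0.19, edgeR Padj = 0.0271), which was not called without control replicate 3 or without IDPN-4wk replicate 1 (edgeR Padj = 0.0864 and 0.116). The median of the list was -0.10 and its summed level was 115 to 159 CPM in the controls and 96.8 to 193 CPM after IDPN. The pan leukocyte and lymphocyte list summed to 19.04 to 22.8 CPM against 13.9 to 19.9 CPM, with 3 of 10 markers tested, none called and Gzmb at 0 counts in all libraries. The dendritic cell and MHC class II list summed to 31.8 to 60.5 CPM in the controls and 8.30 to 11.1 CPM after IDPN, with 4 of 6 genes called lower (Cd74, RT1-Ba, RT1-Bb and RT1-Da). The dendritic cell marker Itgax, with 3, 8 and 21 counts in the controls and 43, 10 and 62 after IDPN, did not pass (log2-Fold change 1.75, edgeR Padj = 0.133), but was called higher without IDPN-4wk replicate 2 (2.25, edgeR Padj = 0.0366). With single libraries left out, its log2-Fold change ranged from 1.23 to 2.72. Cd74, the invariant chain of class II molecules, had a log2-Fold change of -2.70 (standard error 0.24, edgeR Padj = 4.85e-05). Endothelial markers summed to 378 to 506 CPM against 335 to 361 CPM, with 1 of 6, Flt1, called lower (log2-Fold change -0.69, edgeR Padj = 0.0194, and -0.41 without control replicate 2, 0.0621 and 0.0696 as Padj without IDPN-4wk replicates 1 and 2). Neutrophil markers summed to 0.0646 to 2.83 CPM against 0.386 to 0.774 CPM. Of 5 Schwann cell markers, 1, Pmp22, was called lower (log2-Fold change -0.59, edgeR Padj = 0.0148), just past the fold threshold, and was under it at -0.50, -0.58 and -0.43 without control replicate 1, control replicate 3 and IDPN-4wk replicate 2. Of the markers of the labelled tissue, 4 of 8 HC genes (Myo7a, Otof, Tmc1 and Ocm2, with log2-Fold changes of -0.64, -1.19, -1.41 and -0.89) and 2 of 8 supporting cell genes (Otog and Otogl, at -0.97 and -0.89) were called lower. Myo7a was just under the fold threshold, at -0.58, without control replicate 2. With scaling by library size alone, Myo7a, Flt1 and Pmp22 were not called, and Pmp22 was not called with upper quartile scaling either. The part of any of these cells in the levels of the sensors and GTPases was not tested.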

How the data were processed

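RNA of the vestibular epithelium of 6 rats was reverse transcribed with an oligo-dT primer by the SMART-seq2 protocol, without molecular identifiers or strand information. The deposited values are expected counts per gene, which the authors made with STAR 2.5.3a and RSEM 1.3.0 (versions per the labels) on Rnor6.0 with the Rnor6.0.92 annotation. RSEM divides reads that match several genes. All values were whole as deposited. Groups came from the treatment label, and the labels give 1 batch. Totals were 13358678 to 18561991 counts per library, and counting intervals and floors (3 counts) cover counting error only.

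Counts were tested in R 4.3.3 with edgeR 4.0.16 (filterByExpr, minimum count 10, TMM scaling, quasi-likelihood test), over 14352 genes, with calls at a Benjamini-Hochberg adjusted p under 0.05 and a fold over 1.5. The steps were tested on simulated data. DESeq2 1.42.0, other scalings and filters, a test against the fold threshold and leaving out each library were alternatives. The genes named are the 10, those called in each list (the 6 with the smallest p where more were called), and genes with a defining role or no counts. Oasl and Ifit3 were named after their values were seen. Genes, lists and tests were chosen with earlier results of these data known. Lists are given as counts and medians, with no set test. Libraries of a group differed beyond counting noise (chi-square per degree of freedom 7.94 to 16.1 within groups, 29.2 to 59.0 between them). Upstream sequences and gene order were taken from RefSeq tables of GRCr8, matched by symbol (10715 of 14312 tested symbols), and no coordinates of Rnor6.0 were used. 1 gene of the lists is not reported here by name.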

Additional observations from a re-analysis of the deposited data

How the results depend on the processing

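The log2-Fold changes of the 9 genes tested, over 126 values under the alternatives, kept their direction and side of the thresholds in 116, and a further 7 lost and 2 gained a call. Dhx58, Gbp2 and Gbp4 were called under all 14 alternatives, with log2-Fold changes of 1.18 to 1.41, 1.54 to 2.23 and 1.89 to 2.56. Ifih1 was called with scaling by library size alone (0.62). Tlr3, not called, turned from 0.03 to -0.0036 without control replicate 3, and ranged from there to 0.11 without single libraries. Without single libraries, 3 to 5 of the 10 genes were called higher, the fewest without IDPN-4wk replicate 2.

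Tested against the 1.5-fold threshold itself (glmTreat), 3 of the 10 were higher, 7 pathway genes were higher and 0 lower, 4 markers of other cells were called, and 453 genes in all (99 higher, 354 lower), a stricter test by construction. With the adjusted p alone, 2778 genes were called (1132 higher, 1646 lower). With library size alone 762 were higher, and the share of calls that were lower went from 68.1% to 50.6%, with the median of all genes at 0.13. Without a filter, the log2-Fold change of Zbp1 was 1.82 (edgeR Padj = 0.410). No paired analysis was possible because the labels give no replicate numbers. The 3 rats per group and the depth limit low genes such as Zbp1 and Gbp4.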
